A study of Rattus norvegicus with 16 samples.

Results

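The lower dose of a mixture of persistent pollutants was set against vehicle in the liver of weanling rats. The samples were the 4 arrays of the lower-dose group (0.5M) and the 4 arrays of the control group (C), 8 of the 16 arrays measured. All came from male Sprague-Dawley pups, 21 days old, that stayed with their own mothers. The dams of C pups received corn oil alone during gestation and lactation, and the dams of 0.5M pups received organochlorine pesticides, polychlorinated biphenyls and methylmercury in corn oil at 0.5 mg/kg/day. The other groups were M, the same mixture at 1.0 mg/kg/day, and AhR, a set of non-ortho polychlorinated biphenyls, dioxins and furans at 1.8 ng/kg/day in dioxin equivalents, each with 4 arrays. Each array held pooled RNA of 2 pups, and litters were not given, so p-values measure the spread between pools, which may share mothers. Exposure before birth and through milk cannot be told apart in these groups. Each value is the log2 ratio of the liver signal (Cy5) to a universal reference RNA from rat cell lines (Cy3), with the same dye orientation on every array. A level below 0 is therefore lower in liver than in the reference, and levels are compared between groups but not between genes.

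The liver meets foreign compounds with receptors that switch on enzymes. Dioxins and flat polychlorinated biphenyls bind the aryl hydrocarbon receptor, which enters the nucleus, pairs with Arnt and binds DNA at a core motif, GCGTG, to induce Cyp1a1, Cyp1a2 and Cyp1b1. Bulkier polychlorinated biphenyls and many organochlorine pesticides act like phenobarbital through the constitutive androstane receptor and the pregnane X receptor, whose best known targets in rat liver are P450 enzymes of the Cyp2b, Cyp2c and Cyp3a families. P450 enzymes oxidise their substrates with electrons from reductases and cytochrome b5, transferases then attach a sugar, sulfate or glutathione, and ABC pumps export the product.

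The 250 bases before the RefSeq start site (GRCr8) are shown for 4 listed receptor targets, of which Cyp2b2 alone passed the test below. Capitals mark GCGTG or its reverse complement CACGC, searched on both strands. Motifs of the other receptors, and bases outside these windows, were not searched. The Cyp2b2 window (chr1:90722031-90722280, + strand) held 1 match, starting at position -103, where -1 is the base just before the start site. The Ugt1a6 window (chr9:96194768-96195017, + strand) held 1, at position -133, and the Cyp1b1 window (chr6:21094315-21094564, + strand) held 2. The Cyp1a2 window (chr8:66978150-66978399, - strand) held 0.
Cyp2b2: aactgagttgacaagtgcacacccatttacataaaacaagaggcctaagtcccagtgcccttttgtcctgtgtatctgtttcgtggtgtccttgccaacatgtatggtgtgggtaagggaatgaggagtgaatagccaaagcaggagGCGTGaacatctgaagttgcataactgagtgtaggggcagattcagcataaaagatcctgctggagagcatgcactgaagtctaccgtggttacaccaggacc
Ugt1a6: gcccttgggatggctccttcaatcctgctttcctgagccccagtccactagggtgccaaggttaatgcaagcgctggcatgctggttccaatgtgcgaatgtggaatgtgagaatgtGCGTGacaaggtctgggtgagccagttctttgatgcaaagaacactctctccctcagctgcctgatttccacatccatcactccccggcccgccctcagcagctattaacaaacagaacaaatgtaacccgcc
Cyp1b1: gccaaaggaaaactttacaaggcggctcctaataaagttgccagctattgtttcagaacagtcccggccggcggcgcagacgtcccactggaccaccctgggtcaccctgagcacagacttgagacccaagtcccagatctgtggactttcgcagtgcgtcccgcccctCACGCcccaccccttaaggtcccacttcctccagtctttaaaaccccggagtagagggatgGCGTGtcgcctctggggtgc
Cyp1a2: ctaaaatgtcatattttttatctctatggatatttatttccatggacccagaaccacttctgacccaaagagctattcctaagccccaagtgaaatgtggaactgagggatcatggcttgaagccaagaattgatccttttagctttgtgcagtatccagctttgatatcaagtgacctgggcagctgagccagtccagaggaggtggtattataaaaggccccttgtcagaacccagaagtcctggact
The same motif occurred in 8666 of 33469 rat promoter windows of this length (25.9%). Among measured genes with a window, it was in 3 of 5 aryl hydrocarbon receptor targets, 5 of 17 targets of the androstane and pregnane receptors, and 13 of 19 genes of the NRF2 list. A match is a string of letters, and binding there was not measured. No window was at hand for Cyp1a1 or Cyp2c6v1.

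The livers carried their expected markers: 12 of 12 hepatocyte genes were measured, and 11 or 12 of them stood well above background on each array. The log2 of the summed liver-channel signal of these 12 was 19.62 to 19.78 on C arrays and 19.55 to 19.73 on 0.5M arrays. Across the 8 arrays, 9206 to 15686 of 30367 probes were well above background in the liver channel, and no probe was saturated. Replicates 1 and 2 of each group lay on slide 1 and replicates 3 and 4 on slide 2, so the fit includes slide. Of the 8 arrays, 0.5M 4 stood apart clearly and C 2 less so. All 21 skeletal muscle markers with a named probe were highest on 0.5M 4 among the 8 arrays, with a median log2 level 4.72 above the C mean. Their summed signal was 16.55 on the log2 scale on 0.5M 4, 10.97 to 11.46 on the other 0.5M arrays and 10.73 to 11.38 on C arrays. Of 10 stellate cell and fibroblast markers, 8 were also highest on 0.5M 4 (median log2 level 0.71 above the C mean). Des is in both this list and the muscle list. On C 2, 4 of 8 adipose markers were highest, with a median log2 level of 0.45 against -0.25 to -0.13 on the other C arrays. Dixon's ratio, used in a later section, did not flag this level of C 2. Similar shares were highest on C 4, with 4 of 7 neutrophil and 3 of 5 erythroid markers. Outside this comparison, M 2 carried skeletal muscle markers (4.13), with stellate cell and fibroblast markers at 1.49. M 1 (0.89) and AhR 2 (0.42) carried markers of the exocrine pancreas. These 5 arrays were left out together in an alternative, which takes C 2 and 0.5M 4 from the comparison with C. In tissue, fewer cells of a type and less RNA per cell cannot be told apart.

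**Figure D1:**
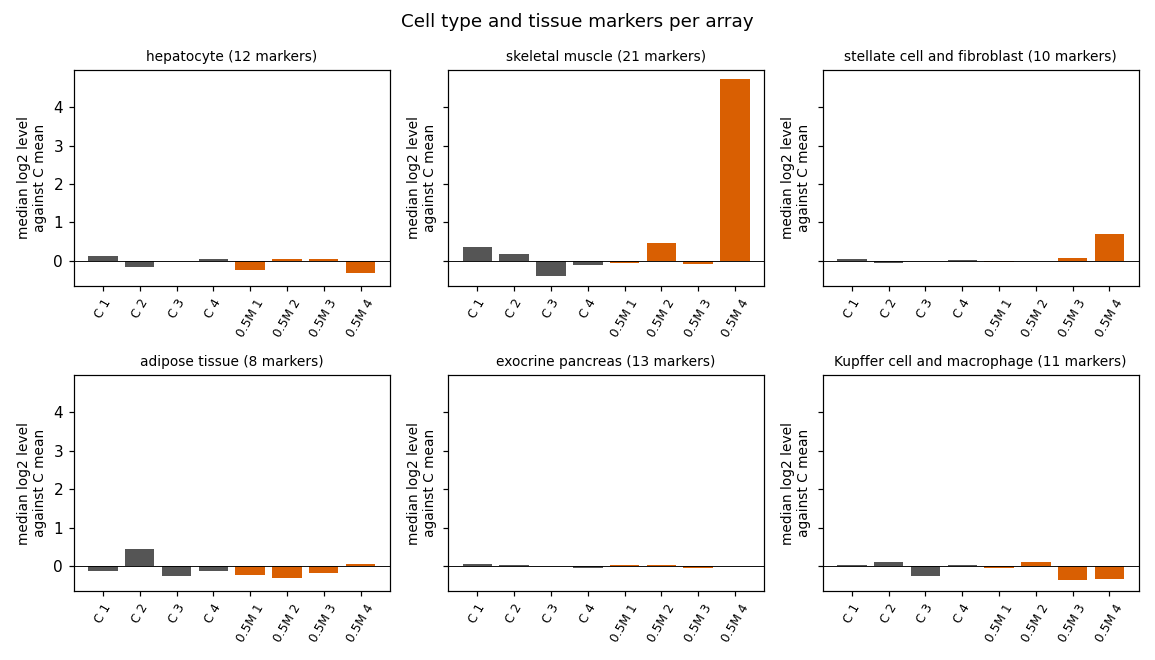
Marker genes of 6 cell types or tissues on the C (grey) and 0.5M (orange) arrays. Each bar is the median log2 level over the markers of a list, relative to the mean of the C arrays. The skeletal muscle bar of 0.5M 4 reaches 4.72, and its stellate cell and fibroblast bar reaches 0.71.

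At the lower dose 2 transcripts rose, both of P450 enzymes. Of 13146 transcripts tested with limma, 2 passed an adjusted p of 0.05, which is 0.0152%, and both were higher in 0.5M than in C. They were Cyp1a1, the classical target of the aryl hydrocarbon receptor, and Cyp2b2, the classical target of the androstane receptor. None was lower by this test, while 861 (6.55%) had an unadjusted p under 0.05, 506 (3.85%) of them lower and 355 (2.7%) higher. Log2 differences had a median standard error of 0.10, and their 95% intervals reached 0.22 to either side at the median. For 187 transcripts (1.42%) the 0.5M arrays all lay above the C arrays, and for 212 (1.61%) all lay below, so that 3.04% did not overlap. With 4 arrays in each group, random order alone separates groups at about these rates. Genes picked for a small p also tend to separate, so separate groups below describe the arrays and add no support to a test.

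Cyp1a1 (NM_012540), which oxidises flat aromatic compounds, had log2 levels of -1.09, -1.76, -1.74 and -2.005 on the C arrays and of 2.69, 1.96, 1.88 and 1.85 on the 0.5M arrays. The groups were far apart, and 0.5M 1 was the highest of its group. This was a 13.4-fold rise, with a log2 difference of 3.74 ± 0.18 (SE of the limma fit; n = 4 against 4 arrays) and adjusted p = 1.38e-08. It was as large on either slide, at 3.75 on slide 1 and 3.74 on slide 2.

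Cyp1a2 (NM_012541), which oxidises aromatic amines and caffeine, had log2 levels of 0.89, 0.03, 0.44 and 0.57 in C and of 1.60, 1.36, 1.23 and 1.13 in 0.5M. The groups did not overlap, but the log2 difference of 0.85 ± 0.17 did not pass the test (adjusted p = 0.26). Ugt1a6 (NM_001039691), which attaches glucuronic acid to flat phenols, had levels of -0.02, 0.59, 0.56 and 0.23 in C and of 1.10, 1.16, 0.94 and 0.74 in 0.5M. Here too the groups were separate and the test was not passed (0.65 ± 0.14, adjusted p = 0.40). A second Ugt1a6 probe gave 0.47.

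The quinone reductase Nqo1 had a log2 difference of 0.48 ± 0.20 (adjusted p = 0.74) with overlapping groups. Cyp1b1, which oxidises oestrogens and polycyclic hydrocarbons, was well above background on no C array and on 1 0.5M array. Its mean 0.5M signal was 1.10-fold that of C, with C signals raised to the limit of detection where below it. This is no lower bound, as most 0.5M arrays were not well above background. It comes from the liver channel alone and is open to dye bias. Cyp1b1 met the filter mostly through M and AhR arrays, and its log2 difference of 0.17 ± 0.16 is counted below. In all, 7 of the 12 listed targets of this receptor were measured. Of these 7, 1 passed the test, 7 were higher in 0.5M (6 or 7 over the alternatives that measured the same genes, as for the ranges of counts that follow), and the median log2 difference was 0.48. Over all transcripts the median was -0.00 and 49.1% were higher. Ahrr, which encodes the repressor of the receptor, and Aldh3a1 were too dim to be tested.

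Cyp2b2 (NM_001198676), which oxidises phenobarbital-like drugs and many pesticides, had log2 levels of -0.70, -0.35, -0.60 and -0.63 in C and of 1.62, 1.35, 1.15 and 1.07 in 0.5M. Every 0.5M array lay above every C array. The transcript rose 3.65-fold (log2 difference 1.87 ± 0.22, adjusted p = 0.00179), by 2.01 on slide 1 and 1.73 on slide 2. A second probe of Cyp2b2 gave 1.21. Whether either probe also binds the closely related Cyp2b1 was not tested.

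Cyp2c6v1 (NM_001013904), a further phenobarbital-inducible P450, had log2 levels of -0.99, -1.23, -0.59 and -1.11 in C and of 0.25, 0.03, 0.20 and -0.42 in 0.5M. The groups did not overlap, with 0.5M 4 the lowest of the exposed arrays. The log2 difference of 1.00 ± 0.17 missed the threshold (adjusted p = 0.15). It passed in 4 of 23 alternatives, among them without 0.5M 4 (1.15, adjusted p = 0.0226) and without C 3 (1.14, adjusted p = 0.0329). The log2 difference of Cyp2c6v1 was 1.25 on slide 1 and 0.74 on slide 2.

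Other enzymes of this battery showed smaller differences. Aldh1a1, which makes retinoic acid from retinal, differed by 0.87 ± 0.28 (adjusted p = 0.65), and Cyp3a23-3a1, an oxidase of steroids and drugs, by 0.45 ± 0.17 (adjusted p = 0.70). For Cyp3a23-3a1 the log2 difference was 0.89 on slide 1 and 0.01 on slide 2. Of the 23 listed targets of the androstane and pregnane receptors, 18 were measured and 1 passed. Of these 18, 12 were higher (11 to 14 over the alternatives), with a median log2 difference of 0.39 and a range from -0.20 to 1.87.

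**Figure D2:**
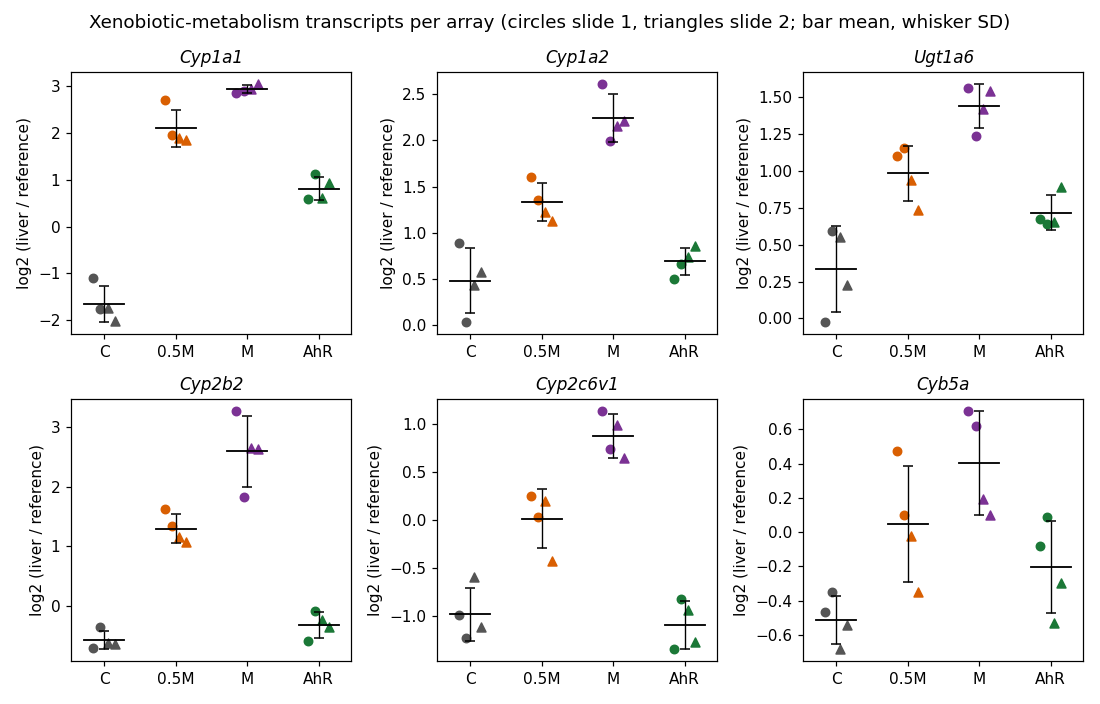
Log2 liver-to-reference level on each array of 6 transcripts of foreign compound metabolism, in C, 0.5M, M and AhR (n = 4 arrays each; circles slide 1, triangles slide 2, bar mean, whisker SD). For Cyp1a1 the C arrays lie between -2.005 and -1.09 and the 0.5M arrays between 1.85 and 2.69. For Cyp2b2 the 0.5M arrays lie between 1.07 and 1.62.

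The receptors themselves were not among the transcripts that passed. Of 14 measured receptors and partner proteins, 0 passed with limma, 3 had an unadjusted p under 0.05, and log2 differences ran from -0.22 to 0.41. Nr1i2, the pregnane X receptor, differed by -0.22 ± 0.10 (adjusted p = 0.75). Ahr (-0.14 ± 0.11) and Nr1i3, the androstane receptor (-0.18 ± 0.18), were picked for their role after their values were seen. The value of Nr1i3 was 0.10 without the 5 arrays with markers of other tissues. Nfe2l2, which encodes the transcription factor NRF2, had a log2 difference of 0.41 ± 0.12 (adjusted p = 0.61).

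Proteins that hand electrons or heme to P450 enzymes differed one by one. Cyb5a, cytochrome b5, had log2 levels of -0.47, -0.35, -0.69 and -0.54 in C and of 0.47, 0.10, -0.02 and -0.35 in 0.5M. The groups only just met without crossing, and 0.5M 4 lay next to C. Its log2 difference was 0.56 ± 0.11 (adjusted p = 0.19). Pgrmc1, a heme-binding partner of P450 enzymes, differed by 0.28 ± 0.09 (adjusted p = 0.65). Por, the reductase that all these enzymes share, differed by -0.05 ± 0.19, a value that was 0.02 with array weights or on slide 1 alone. Of 8 electron donors and partners, 3 were higher. Among 11 genes of heme metabolism, Alas1, which starts heme synthesis, had the largest log2 difference at 0.65 ± 0.30 (adjusted p = 0.75), with 0.5M arrays from 0.24 to 1.31 and C arrays from 0.00 to 0.36. Fech, which inserts the iron, differed by 0.30 ± 0.17.

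Of the enzymes that attach a sugar, Ugt2b1 had log2 levels of -0.27, 0.23, 0.44 and 0.29 in C and of 1.02, 0.99, 1.12 and 0.52 in 0.5M. The groups were separate, with 0.5M 4 the lowest exposed array, and the difference was 0.74 ± 0.22 (adjusted p = 0.59). Ugt2b35 differed by 0.30 ± 0.11. Ugdh, which makes the glucuronic acid donor, had C arrays from -0.94 to -0.86 and 0.5M arrays from -0.80 to -0.53, a log2 difference of 0.26 ± 0.09 (adjusted p = 0.66). Sult1b1, which sulfates thyroid hormones, differed by 0.40 ± 0.26 (adjusted p = 0.80).

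Among export pumps, Abcc2, which moves conjugates into bile, had log2 levels of -1.57, -1.66, -1.35 and -1.60 in C and of -1.05, -1.08, -1.14 and -0.96 in 0.5M. Both groups were tight and separate, and the log2 difference of 0.49 ± 0.11 was not called (adjusted p = 0.44). Abcc3 (0.37 ± 0.15), which exports conjugates into blood, and Abcc1 (0.20 ± 0.09) had 0.5M arrays that ran higher on average, but a second Abcc1 probe gave 0.03. Of 17 liver transporters measured, 0 passed with limma, 4 had an unadjusted p under 0.05, and 11 were higher.

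Genes of the NRF2 response, which guards against electrophiles and oxidants, had a median log2 difference of 0.26 (0.14 without 0.5M 2). Of 19 measured, 16 were higher (14 to 17 over the alternatives), 6 had an unadjusted p under 0.05 and 0 passed with limma. Me1, which makes NADPH from malate, had log2 levels of -1.04, -0.36, -0.99 and -1.10 in C and of -0.54, 0.55, -0.03 and 0.04 in 0.5M. C 2, the array with adipose markers, stood above its group and overlapped with 0.5M 1, and the difference was 0.88 ± 0.22 (adjusted p = 0.59; 0.66 with its other probe). Gsta3, a glutathione transferase, differed by 0.63 ± 0.17 (adjusted p = 0.59), and Gsta4, which clears lipid peroxidation products, by 0.19 ± 0.13. Several members also belong to the receptor lists above.

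**Figure D3:**
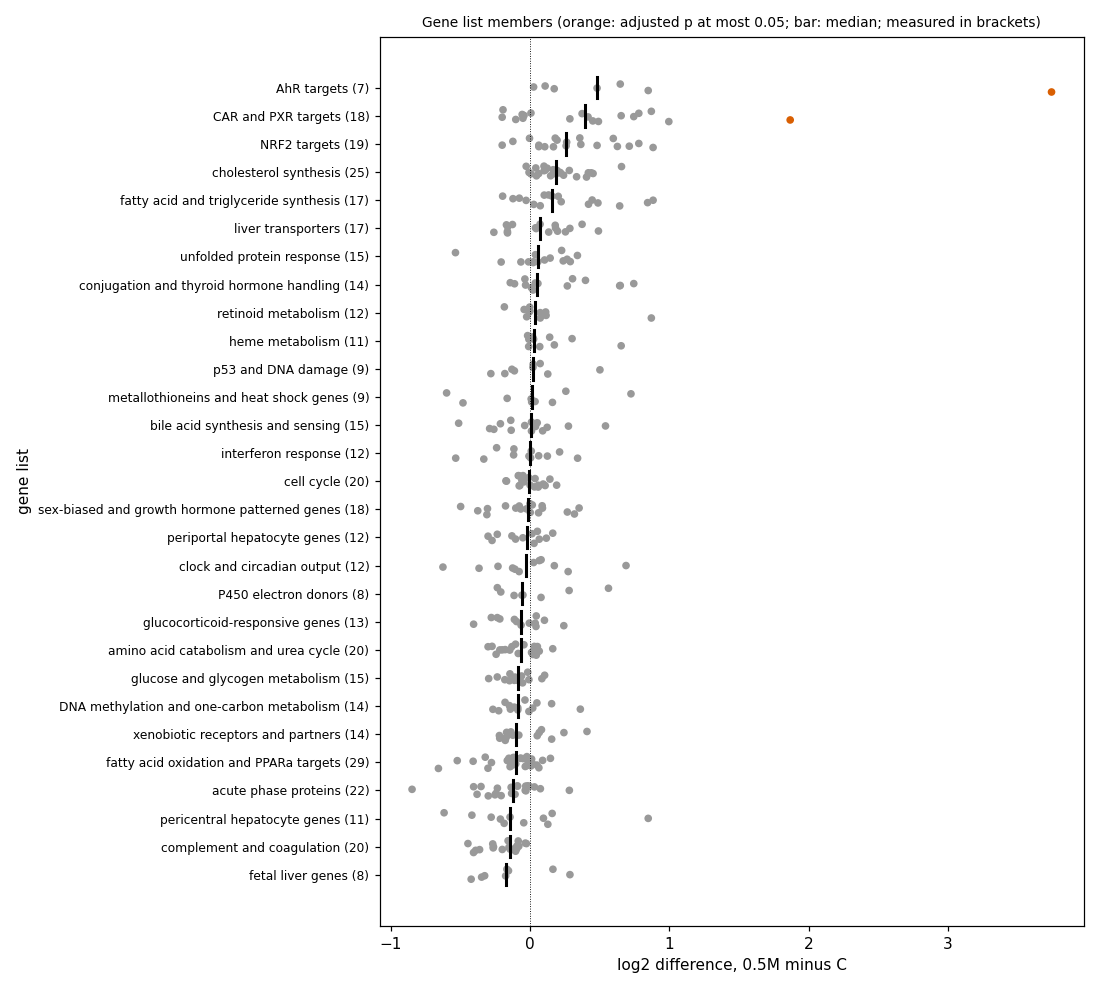
Log2 difference of 0.5M minus C for the members of 29 gene lists. Each point is a gene, the black bar is the list median, the number in brackets is the members measured, and orange marks an adjusted p of at most 0.05. Cyp1a1 at 3.74 and Cyp2b2 at 1.87 are the orange points, and list medians run from 0.48 for aryl hydrocarbon receptor targets to -0.17 for fetal liver genes.

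Lipid synthesis genes ran higher in 0.5M without any call. In cholesterol synthesis, 23 of 25 were higher (20 with median centring, 13 on slide 1 alone, 16 without C 4, and 25 without the 5 arrays with markers of other tissues), the median log2 difference was 0.18 and 3 had an unadjusted p under 0.05. The median was 0.03 on slide 1 and 0.35 on slide 2, 0.02 without C 4, 0.28 without C 2 and 0.36 without the 5 arrays. Msmo1, a sterol oxidase of the late pathway, differed by 0.66 ± 0.22 (adjusted p = 0.66), and Hmgcs1, an enzyme of the early pathway, by 0.44 ± 0.19. Of 17 genes of fatty acid and triglyceride synthesis, 13 were higher (12 with median centring, 11 with the scanner's ratio, 16 without the 5 arrays), with a median of 0.16. That median was 0.07 without C 4, 0.09 without 0.5M 2, 0.24 without C 3, 0.25 without 0.5M 4 and 0.33 without the 5 arrays. The part of the adipose signal of C 2 in these lists was not tested. Thrsp, a lipogenic protein that thyroid hormone induces, differed by 0.64 ± 0.27 (adjusted p = 0.74), and Fasn, fatty acid synthase, by 0.49 ± 0.20 (adjusted p = 0.74).

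Fatty acid oxidation genes ran the other way, again without a call. Of 29, 22 were lower (26 with median centring, 24 with the scanner's ratio, 16 without the 5 arrays), with a median log2 difference of -0.10 (-0.07 without C 2, -0.05 without C 3, -0.03 without the 5 arrays) and 3 at an unadjusted p under 0.05. Cpt1a, which admits fatty acids to mitochondria, had log2 levels of -0.31, -0.69, -0.42 and 0.07 in C and of -1.16, -0.89, -0.69 and -1.23 in 0.5M. The highest 0.5M array lay level with the lowest C array, and the log2 difference was -0.66 ± 0.21 (adjusted p = 0.65). Acadvl, an acyl-CoA dehydrogenase, differed by -0.28 ± 0.08 (adjusted p = 0.59). Hadha, of the same mitochondrial cycle, differed by -0.52 ± 0.16 with the brightest probe and by -0.08 with the other. Cyp8b1, which sets the share of cholic acid among bile acids, differed by -0.51 ± 0.21 (adjusted p = 0.74), while 8 of 15 bile acid genes were higher.

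Secreted liver proteins of inflammation and clotting were mostly lower in 0.5M, and 0 passed with limma. All 20 measured complement and coagulation genes had lower means (16 to 20 over the alternatives), with a median log2 difference of -0.15 and 3 at an unadjusted p under 0.05. That median was -0.08 without 0.5M 4, -0.09 without C 1, -0.23 without C 2 and -0.24 without 0.5M 3. F7, a clotting protease, had log2 levels of 0.85, 0.32, 0.34 and 0.40 in C and of 0.21, 0.08, 0.17 and -0.17 in 0.5M. C 1 was the highest array, the groups were separate, and the difference was -0.41 ± 0.14 (adjusted p = 0.66). F9, a further clotting protease, differed by -0.45 ± 0.18 and C1r, which starts the classical complement cascade, by -0.39 ± 0.17. Of 22 acute phase genes, 19 were lower (14 to 21 over the alternatives), with a median of -0.12, which was -0.05 without C 1 and -0.18 to -0.22 without C 2, 0.5M 2 or 0.5M 3. Lbp, which carries bacterial lipopolysaccharide, had log2 levels of 1.87, 0.64, 1.05 and 1.71 in C and of 0.37, 0.31, 0.67 and 0.52 in 0.5M. The groups overlapped slightly, and the difference was -0.85 ± 0.23 (adjusted p = 0.59). A2m, an acute phase protein of rats, differed by -0.30 ± 0.16 (adjusted p = 0.75), and Hpx, which scavenges heme, by -0.35 ± 0.18. Over the same arrays 8 of 12 hepatocyte markers were lower (median -0.12), and so were 9 of 10 Kupffer cell and macrophage markers (median -0.14). Against the C mean, the Kupffer level was -0.05 on 0.5M 1 and 0.11 on 0.5M 2, both on slide 1. On slide 2 it was -0.35 on 0.5M 3 and -0.34 on 0.5M 4, with C 3 at -0.27. The part of these marker shifts in the differences of the secreted proteins was not tested.

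Genes of hepatocytes around the central vein had a median log2 difference of -0.14 over 11 members, but 0.07 on slide 1 and -0.29 on slide 2, -0.03 without C 4 and -0.07 without 0.5M 4. Of these 11, 7 were lower. The 4 higher were Cyp1a2 (0.85), also a listed aryl hydrocarbon receptor target, Rhbg (0.16), Rgn (0.13) and Lect2 (0.09). Glul, a further member, differed by -0.05 ± 0.12. Cyp2e1, an ethanol-oxidising P450 of this zone, differed by -0.62 ± 0.19 (adjusted p = 0.62). Axin2, a Wnt target, had C levels of 0.41, 0.11, 0.76 and 0.86, while the 0.5M arrays lay together between 0.11 and 0.12, and its difference was -0.14 on slide 1 and -0.70 on slide 2. Among clock genes, Nfil3, a repressor of circadian output, had levels of 0.46, 0.21, 0.77 and 0.73 in C and of -0.13, 0.02, 0.13 and -0.36 in 0.5M. The groups were separate, and the difference of -0.63 ± 0.14 was not called (adjusted p = 0.40). It was -0.39 on slide 1 and -0.87 on slide 2. Cry1, a core clock repressor, differed by -0.37 ± 0.15 (-0.07 on slide 1 and -0.66 on slide 2), with 6 of 12 clock genes lower. Over all transcripts, 0 differed between slides in their response in limma's interaction term (274 of 13146 had an unadjusted p under 0.05).

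Fetal liver genes had the lowest median of the 29 lists, at -0.17 with 6 of 8 lower, and it was -0.06 without 0.5M 4 and -0.08 without C 1. The 2 higher members were Afp (0.29 ± 0.35) and Gpc3 (0.16 ± 0.17). Among the 6 lower, Ahsg (-0.16 ± 0.21) is also in the hepatocyte list. Of 15 genes of glucose and glycogen metabolism 13 were lower (median -0.09, or -0.05 without C 3), as were 10 of 14 of DNA methylation and one-carbon metabolism (median -0.09, or -0.02 without C 1). The metallothioneins Mt1 (-0.48 ± 0.33) and Mt2A (-0.60 ± 0.34), which bind metals, had C arrays spread from 0.17 to 1.58 and from -0.14 to 1.44, and 0.5M arrays within those ranges or just below. The interferon regulator Irf1 differed by -0.54 ± 0.17 with its brightest probe and by -0.09 with the other. Ccng1, a p53 target, differed by 0.50 ± 0.21, from 0.15 on slide 1 to 0.85 on slide 2. Igf2, a growth factor of the fetal list, differed by -0.42 ± 0.27, and the chaperone Calr by -0.54 ± 0.25. The male-specific P450 Cyp2c11, which is still low before puberty, differed by -0.31 ± 0.17. The medians were -0.01 for 20 cell cycle genes, 0.02 for 9 genes of the p53 list and -0.07 for 13 genes that respond to glucocorticoids.

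Of the transcripts lower in 0.5M, Usp42 (NM_001105909), a deubiquitinase, had the smallest p. Its log2 levels were 0.40, 0.31, 0.16 and 0.32 in C and -0.21, -0.12, -0.17 and -0.16 in 0.5M. The groups were separate and the exposed arrays lay within a narrow band, but the difference of -0.46 ± 0.09 was not called (adjusted p = 0.19). Patz1, a zinc finger regulator, differed by -0.42 ± 0.09 (adjusted p = 0.40). Cyp17a1, which makes androgen precursors, had levels of 1.80, 1.21, 1.21 and 1.68 in C and of 1.04, 0.89, 1.02 and 0.95 in 0.5M. All exposed arrays lay below C, with a difference of -0.50 ± 0.13 (adjusted p = 0.59). Vegfa, the vascular growth factor, differed by -0.49 ± 0.13 with 2 probes agreeing (-0.49 and -0.48), while probes of another of its transcripts gave -0.13 and 0.05. Sdc2, Fam133b, Abcc9, Fam107b, Slc16a11, Wasl and Scamp3 differed by -0.47 to -0.35 (adjusted p = 0.59 each), and a second probe of Fam133b gave 0.11. Among those higher, Acbd4 (0.36 ± 0.09), Mmgt1 (0.31 ± 0.08), Ddc (0.44 ± 0.12, and 0.20 with another probe) and the nucleoside diphosphate kinase Nme2 (0.31 ± 0.08) had adjusted p = 0.59 each.

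**Figure D4:**
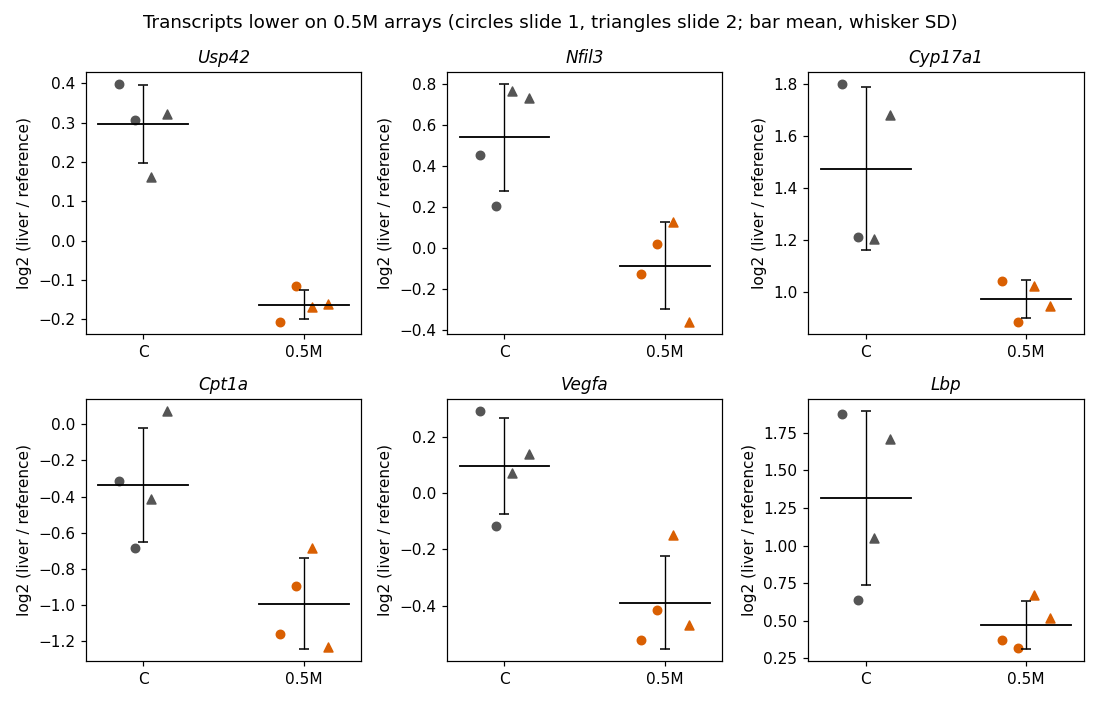
Log2 liver-to-reference level on each C and 0.5M array of 6 transcripts with lower means in 0.5M (n = 4 arrays each; circles slide 1, triangles slide 2, bar mean, whisker SD). None passed the test. For Usp42 the C arrays lie between 0.16 and 0.40 and the 0.5M arrays between -0.21 and -0.12.

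Most of the largest differences rested on a single array. Of 22 transcripts (0.167%) with a log2 difference of at least 1, 15 were at least 2 log2 units higher on 0.5M 4 than on the mean of the other 0.5M arrays, and each of these 15 was under 0.5 without it. They include Tnnc2, a muscle troponin, at 1.81 with and -0.09 without 0.5M 4, and Ckm, muscle creatine kinase, at 1.55 and -0.04. The other 7 stayed at 1 or more: Cyp1a1 at 3.79, Cyp2b2 at 1.93 and 5 transcripts without a symbol. Those 5 did not pass the test. At -1 or less there was 1 transcript (0.00761%), also without a symbol.

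The higher dose was compared with the lower one directly, to see which transcripts moved further as the dose went from 0.5 to 1.0 mg/kg/day. Of 13146 transcripts, 2 were higher in M than in 0.5M with limma (0.0152%), and 882 (6.71%) had an unadjusted p under 0.05. Ceacam4, a member of the carcinoembryonic antigen family, had log2 levels of 0.34, 0.10, 0.15 and 0.15 in 0.5M and of 2.11, 1.33, 2.55 and 2.32 in M. The groups lay far apart, and the transcript rose by 1.89 ± 0.18 (adjusted p = 0.000189). Against C the lower dose differed by 0.51 ± 0.18 (adjusted p = 0.66). Cyp2c7, a P450 that female rats express more strongly, had levels of -4.27, -3.89, -4.06 and -4.50 in 0.5M and of -2.09, -2.83, -2.37 and -3.03 in M. It rose by 1.60 ± 0.20 (adjusted p = 0.0046), and was not called on either slide alone, with median centring, with only the 8 arrays of both groups, or without the 5 arrays with markers of other tissues, while the lower dose differed from C by 0.32 ± 0.20 (adjusted p = 0.79; 0.72 with another probe). Apoa2, an apolipoprotein, stepped by 0.42 ± 0.26 from C to 0.5M and by 1.09 ± 0.26 from 0.5M to M (adjusted p = 0.34), neither called.

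For the other P450 enzymes of the induced battery the further step was not called, though it was for some under other settings. Cyp2b2 was higher in M than in 0.5M by 1.29 ± 0.22 (adjusted p = 0.0795) and Cyp1a1 by 0.84 ± 0.18 (adjusted p = 0.27; 95% interval 0.45 to 1.23). Cyp2b2 passed without M 2, without M 2 and 0.5M 4, with array weights, on slide 2 alone and without the 5 arrays. Cyp1b1 (0.60, adjusted p = 0.45 in the main fit) passed on slide 2 alone and without the 5 arrays, and Cyp2a3 without the 5 arrays. Cyp1a2 differed by 0.91 ± 0.17 and passed on slide 2 alone, and Cyp2c6v1 differed by 0.86 ± 0.17. The intervals for Abcc2 (0.04, -0.20 to 0.27), Me1 (-0.09, -0.55 to 0.38) and Nfil3 (-0.01, -0.30 to 0.28) included 0. Fasn differed by -0.78 ± 0.20 between M and 0.5M (adjusted p = 0.45). The steps share the 0.5M arrays, so a high or low value there enters both with opposite sign.

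**Figure D5:**
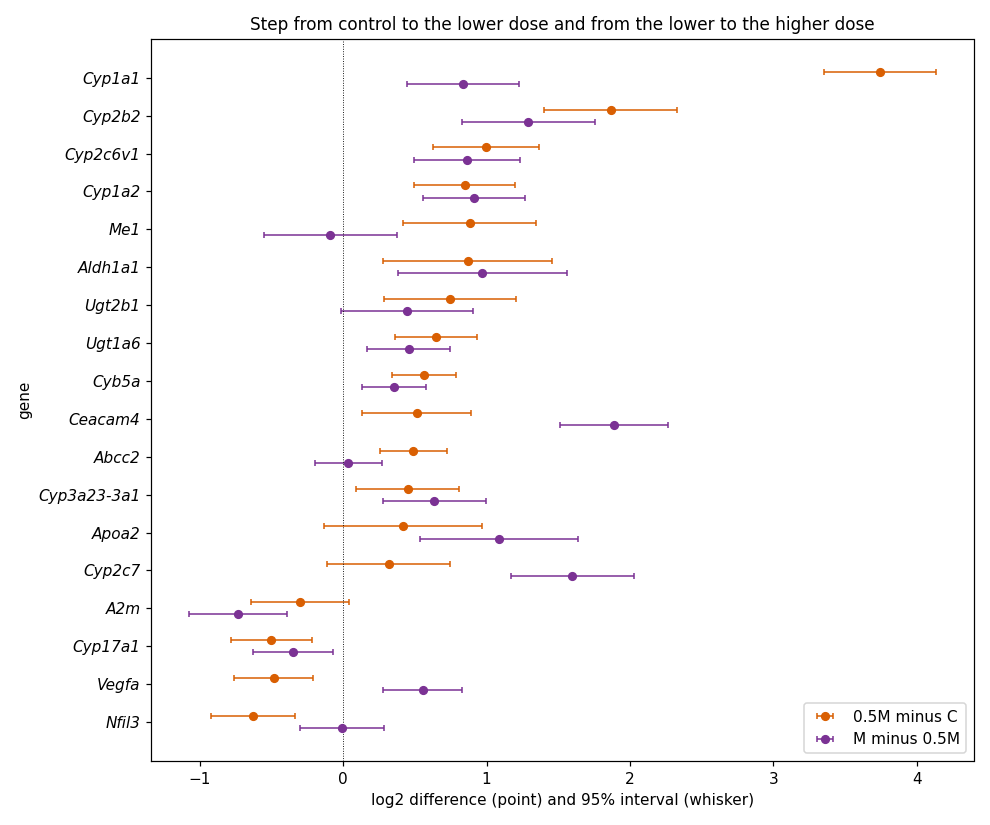
Log2 difference and 95% interval from C to 0.5M (orange) and from 0.5M to M (purple) for 18 transcripts. Cyp1a1 differs by 3.74 at the first step and 0.84 at the second, Cyp2b2 by 1.87 and 1.29, and Ceacam4 by 0.51 and 1.89. Both steps use the same 0.5M arrays.

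Set against the AhR group, 3 transcripts differed with limma (0.0228%), all lower in AhR than in 0.5M, and 1186 (9.02%) had an unadjusted p under 0.05. Cyp1a1 had log2 levels of 0.59, 1.11, 0.61 and 0.92 in AhR, above every C array and below every 0.5M array, and was 1.29 ± 0.18 lower than in 0.5M (log2 difference -1.29, adjusted p = 0.0221). Cyp2b2 had levels of -0.58, -0.08, -0.23 and -0.35 in AhR, next to the C arrays, and differed by -1.61 ± 0.22 (adjusted p = 0.0221). Cyp2c6v1 differed by -1.11 ± 0.17 (adjusted p = 0.0446). These calls sat near the threshold: none passed when any of AhR 1, AhR 3, AhR 4, 0.5M 1, 0.5M 2 or 0.5M 3 was left out, with 929 to 1200 transcripts at an unadjusted p under 0.05. Cyp1a1 was also not called without M 2 and 0.5M 4 together or without the 5 arrays with markers of other tissues. The same held on slide 2 alone and with only the 8 arrays of both groups. Cyp2b2 was called in each of these settings, and Cyp1a1 was called without 0.5M 4 alone. Cyp1a2 differed by -0.64 ± 0.17 and Ugt1a6 by -0.27 ± 0.14 between these groups, neither called (adjusted p = 0.32 and 0.58).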

How the data were processed

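Liver RNA of 16 pools was measured on Agilent arrays with 2 colours. The deposited scan files, 1 per array, hold median signals and backgrounds of 62976 spots as scanner intensity, written by Agilent Feature Extraction 10.7.3.1 per the file headers. Per the file headers their LogRatio column is on the log10 scale, and the marks for spot quality, of the unit other, are 0 or 1. A value table of the authors, on the log2 scale, served as an alternative. Its columns correlated with their own array at 0.965 to 0.991 and with another at 0.882 at most. Its direction is liver over reference and its medians lie between -0.00930 and 0.0125, but how it was normalized is not given in the sources used here.

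Signals were corrected with normexp (offset 50, limma 3.58.1, R 4.3.3) on medians, as the files hold no means, then normalized per array by loess, with weight 0 for control spots. Non-uniform and outlier spots were left out and the spots of a probe averaged. A probe needed a Cy5 signal well above background on 4 or more of 16 arrays (14524 of 30367, less 12 with missing values). The brightest probe stood for each gene, giving 13146 transcripts, 8562 with a symbol from RefSeq (GRCr8, used for names and promoters only). limma fitted a mean per group plus slide to all 16 arrays, with two-sided tests and Benjamini-Hochberg adjustment over 13146 transcripts in each comparison. Scripts were tested on simulated data. Precision is limited by the number of arrays.

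Named genes are those past the threshold, the 12 of smallest p in each direction, a fixed set of receptor targets, the 3 of smallest p in each list, and the 6 of smallest adjusted p in each direction of the comparisons with M and AhR; the text gives values for part of them. The groups, genes and lists were chosen with earlier results of these data known.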

Additional observations from a re-analysis of the deposited data

Results flagged for a closer look

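In 11 of 164 sets of 4 arrays tested, the highest or lowest array lay far from the other 3 by Dixon's ratio, and chance alone gives about 1 in 20. The skeletal muscle markers on 0.5M 4 had a median log2 level of 4.72 against the C mean, and the stellate cell and fibroblast markers on the same array had 0.709. Also on 0.5M 4, F9 was low at -0.658. On 0.5M 1, Cyp1a1 was high at 2.69, Cry1 was high at 0.673 and Abcc3 was low at 0.420. On C 1, F7 was high at 0.851 and Patz1 was high at 0.725. Me1 was high on C 2 at -0.362, Ceacam4 was low on C 3 at -0.530, and Gsta4 was low on C 4 at -0.0325.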

How the results depend on the processing

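Over 73 named genes and the alternatives tried, 1666 values were computed again: 1654 kept their direction and side of the threshold, 3 lost the call, 4 gained it and 5 changed sign. Only Cyp1a1 and Cyp2b2 had a call to lose, and they kept it in 22 and 21 of 23 alternatives. Most of the 1654 belong to genes not called in the main fit, so their staying uncalled says little about stability. The sign changes were Por at 0.0155 on slide 1 alone, 0.0150 with array weights, 0.0711 without C 1 and 0.0781 without C 4 (down to -0.181 without C 2), and Nr1i3 at 0.0965 without the 5 arrays with other tissue, all far from the threshold. With each array median-centred in place of loess, 0 transcripts were called by limma in 0.5M against C (110 at an unadjusted p under 0.05), 0 in M against 0.5M (56) and 0 in AhR against 0.5M (171). Cyp1a1 was then 3.51 (adjusted p = 0.0697) and Cyp2b2 1.80 (adjusted p = 1), and the cause was not tested. On slide 1 alone, with fewer arrays, 1 was called in 0.5M against C, 0 in M against 0.5M (640 unadjusted) and 0 in AhR against 0.5M (382), with Cyp2b2 at 2.01 (adjusted p = 1.0). Leaving out 1 array gave 2 to 3 calls in 0.5M against C, with Cyp1a1 from 3.57 to 3.91 and Cyp2b2 from 1.77 to 1.93, 2 to 3 calls in M against 0.5M, and 0 to 3 in AhR against 0.5M. M against 0.5M gave 1 call with the filter on all 16 arrays, 4 on slide 2, 4 with array weights and 4 without the 5 arrays with other tissue, and Cyp2c7 was not among those on slide 2 or without the 5 arrays. AhR against 0.5M gave 0 with the scanner's own ratio (1031 unadjusted) and 1 with only the 8 arrays of both groups.

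The labels do not say whether arrays with the same replicate number belong together. Correlations of same-numbered deviations in C and 0.5M were -0.02, -0.03, 0.22 and 0.05. With the replicate block in place of the slide, 3 were called in 0.5M against C (Cyp2c6v1 joined, adjusted p = 0.0223), 7 in M against 0.5M (Cyp1a2 and Cyp2c6v1 among them) and 5 in AhR against 0.5M. The number of arrays and probes near background limit what could be seen.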
